A study of Mus musculus with 8 samples.

Results

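A set of 17 genes of the D2A1 mouse mammary carcinoma line had a probe that was detected on every array of the parental cells and on no array of either metastatic subline. They were found on 1-colour Illumina MouseWG-6 v2.0 bead arrays by 1 rule on the detection p-value, a measure of how far a probe stands above the control beads that match no transcript. The rule asks for a value of at most 0.01 on all 3 D2A1 arrays and above 0.05 on both D2A1-m1 and all 3 D2A1-m2 arrays. Of 12734 probes detected on all D2A1 arrays, 22 met it, which is 0.173%. Of these, 20 name 1 gene each and 2 name none, and the 20 stand for 19 gene symbols. Of the 19, 17 are described here and 2 are not reported, out of 19057 genes with a named probe on the array. The opposite pattern, detected on all 5 subline arrays and undetected on all D2A1 arrays, was met by 71 of 12742 probes, which is 0.557%.

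D2A1-m1 and D2A1-m2 were selected separately from D2A1, a line of BALB/c origin, by implanting the parental cells in the mammary fat pad of 1 mouse each and then passing cells grown out of the lungs through the tail vein. Each subline is thus a single lineage, and what distinguishes it from D2A1 cannot be told apart from what came with that lineage. RNA came from cultured cells, with 2 cultures of D2A1-m1, 3 of D2A1-m2 and 3 of D2A1, which the methods call independent biological replicates. Arrays were run in 2 batches, and batch 1 held replicate 1 of both sublines and D2A1 replicates 1 and 2.

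With detection taken as a p of 0.01 or less, each D2A1-m1 array detected 13618 to 14625 of the 45281 probes, each D2A1-m2 array 13768 to 14942 and each D2A1 array 13419 to 14387. Replicate arrays of a line correlated at 0.980 to 0.994 over probes. Markers of other cell types were largely undetected. Probes for 9 of 9 endothelial and 6 of 6 adipocyte markers were detected on no array, and so were 8 of 12 leukocyte markers, Ptprc among them, 8 of 12 fibroblast markers and 7 of 9 lung epithelial markers. Of 15 mammary epithelial markers, 9 were detected on no array, among them the defining Cdh1, Epcam, Krt5 and Krt14, while Krt8 and Krt18 were detected on all arrays. The summed intensity of the fibroblast list was 2778 to 2835 in D2A1-m1, 1904 to 2300 in D2A1-m2 and 1505 to 1647 in D2A1. That of the mammary epithelial list was 2337 to 2484 in D2A1-m1, 2277 to 2506 in D2A1-m2 and 1590 to 1843 in D2A1. That of the leukocyte list was 1731 to 2221 in D2A1-m1, 1617 to 1884 in D2A1-m2 and 1386 to 1578 in D2A1. The smooth muscle and pericyte list, with 6 of 8 markers detected on no array, summed to 1128 to 1268 in D2A1-m1, 2580 to 2728 in D2A1-m2 and 973 to 1582 in D2A1. The part of these lists in the results was not tested. Whether a rarer cell type or less RNA per cell lies behind a low signal cannot be told apart in such bulk samples.

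Several of the 17 genes act at the cell surface or in the matrix around it. Heparan sulphate is a sugar chain on surface and matrix proteins, and the last, rare step of its synthesis, the addition of 3-O-sulphate, is done by enzymes of the Hs3st family and changes which proteins the chain binds. Growth factors of the FGF family are stored on these chains and are set free by binding proteins such as Fgfbp1. Other members belong to signalling inside the cell: LIM-domain and PDZ-domain scaffolds, a polarity protein, and regulators of small GTPases.

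The RefSeq promoter table (GRCm38.p6) held an entry for 14 of the 17 genes. The 250 bases before the transcription start are printed for the 4 genes of highest level in D2A1, since their level in the parental cells stood farthest from background. Capitals mark the GC box GGGCGG, which appears as its reverse complement where it lies on the opposite strand. They also mark the CCAAT box. In Tmem98 they further mark the E box CACGTG. The last 2 GC boxes of Tmem98 overlap.
Wtip, chr7:34133269-34133518, minus strand: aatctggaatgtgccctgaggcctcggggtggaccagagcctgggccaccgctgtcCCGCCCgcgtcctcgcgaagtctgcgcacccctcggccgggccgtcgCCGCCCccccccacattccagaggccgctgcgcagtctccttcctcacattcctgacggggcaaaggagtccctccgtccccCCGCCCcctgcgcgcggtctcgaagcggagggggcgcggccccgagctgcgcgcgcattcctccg
Pdzrn3, chr6:101377898-101378147, minus strand: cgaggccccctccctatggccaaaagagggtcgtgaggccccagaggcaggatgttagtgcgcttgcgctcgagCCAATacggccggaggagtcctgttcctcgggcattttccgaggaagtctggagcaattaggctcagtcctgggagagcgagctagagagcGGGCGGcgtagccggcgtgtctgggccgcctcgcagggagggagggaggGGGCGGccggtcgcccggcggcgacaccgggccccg
Ltk, chr2:119758526-119758775, minus strand: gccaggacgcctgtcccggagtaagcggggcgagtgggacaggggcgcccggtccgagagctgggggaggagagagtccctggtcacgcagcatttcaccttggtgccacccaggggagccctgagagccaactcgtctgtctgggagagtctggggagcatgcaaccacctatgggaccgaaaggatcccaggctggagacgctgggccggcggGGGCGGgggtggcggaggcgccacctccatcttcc
Tmem98, chr11:80810116-80810365, plus strand: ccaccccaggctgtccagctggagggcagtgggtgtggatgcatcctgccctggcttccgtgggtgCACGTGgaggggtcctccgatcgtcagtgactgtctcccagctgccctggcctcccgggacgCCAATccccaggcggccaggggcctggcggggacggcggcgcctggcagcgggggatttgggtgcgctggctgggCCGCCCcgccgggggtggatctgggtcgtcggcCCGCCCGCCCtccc

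The 4 stretches held 30 CG dinucleotides in Wtip, 25 in Pdzrn3, 16 in Ltk and 20 in Tmem98. The table's full entries add 50 bases after the start, and over these a GC box was found in 7 of the 14 genes, which is 50%, against 35.9% of 27025 promoters in the table and 68.2% of 6156 promoters of genes detected on all D2A1 arrays. TATAAA on either strand was found in 3, Fgfbp1, Ckb and Ogn, which is 21.4%, against 14.2% and 7.07% in the same comparison sets. CCAAT was found in 42.9% (38% of all promoters and 39.9% of those of D2A1-detected genes), CACGTG in 14.3% (7.24% and 11%) and TGACTCA, the AP-1 motif, in 0 of 14 (5.17% and 3.3%). The median number of CG was 21 in the 14 genes, 7 over the table and 22 over genes detected in D2A1. The range ran from 4 in Fgfbp1 and Ogn to 39 in Wtip, so that the group mixed CG-rich and CG-poor promoters. Promoters with at least 55% GC and a CG content of at least 0.65 of that expected from their base composition made up 42.9% of the 14, 28.4% of the table and 64.2% of D2A1-detected genes. The entries of Ltk, Hs3st1 and Tom1l1 start 1906, 961 and 678 bases inside the annotated gene, and those of Fgfbp1 and Arhgap44 29 and 11 bases inside it, so that they stand for shorter transcripts.

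On the deposited scale, before any correction, the 17 genes gave intensities of 47.6 to 63.4 on the subline arrays and 73 to 233.2 on the D2A1 arrays. The median intensity of undetected probes was 50.3 to 53 on the 8 arrays, so that the subline values lay near the background. For every one of the 17 the lowest D2A1 array was above the highest subline array, as it was for 11.5% of all kept probes, which follows from the rule. The smallest such gap was 0.65 on the log2 scale.

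**Figure D1:**
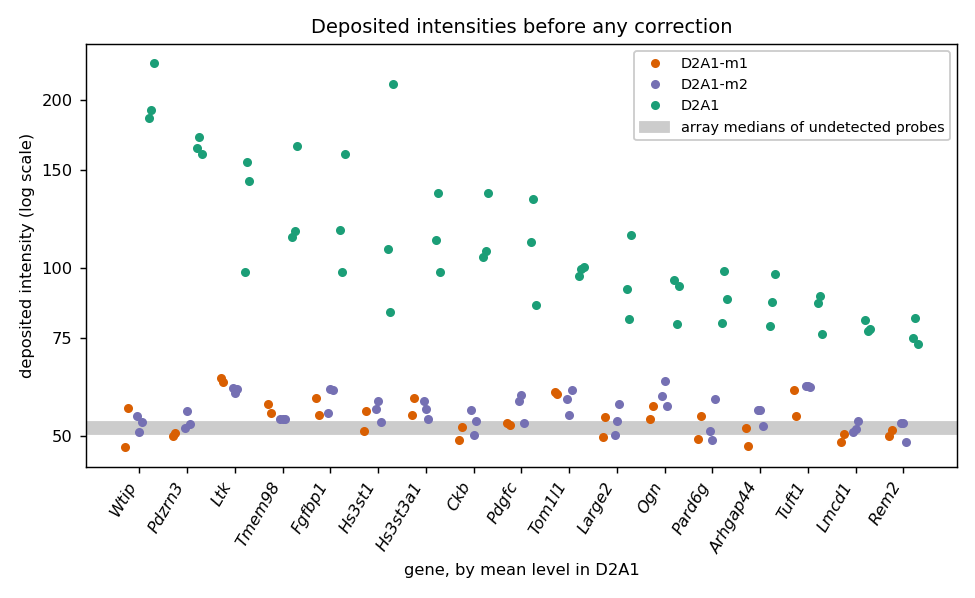
Deposited intensity (log axis) of each gene on the 2 D2A1-m1, 3 D2A1-m2 and 3 D2A1 arrays, 1 point per array. The grey band gives the array medians of undetected probes, 50.3 to 53. All subline points lie between 47.6 and 63.4 and all D2A1 points between 73 and 233.2.

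For the following values the intensities were background-corrected, quantile-normalised and put on the log2 scale, on which an undetected probe reads about 4.4. Since every member was undetected in both sublines, its fold is given as a lower bound ("at least"), which sets the D2A1 mean against the lowest signal among detected probes of each subline array. These differences describe how the genes were chosen, so that no test is given for them. Over the 17 genes, the fitted difference had a median of -1.88 for D2A1-m1 minus D2A1 (range -3.15 to -1.10) and -1.70 for D2A1-m2 minus D2A1 (range -3.16 to -0.97), where the median over all kept probes was -0.00 and -0.01. The size of these fitted values depends on the floor of the subline arrays. Bounds ran from 1.19 to 4.95 in D2A1-m1, with a median of 2.17, and from 1.24 to 5.16 in D2A1-m2, with a median of 2.26. The subline side of a bound was the same floor for every member, so the bounds rank the genes by their D2A1 level alone. The slightly higher bounds in D2A1-m2 reflect the floors of its arrays and tell nothing about single genes. The bounds hold for this processing only. In the fit across all kept probes, 6.07% were called lower in D2A1-m1, 5.93% in D2A1-m2 and 3.16% in both. All 17 members were among the last of these, and since the rule used the same contrast nothing is read from it.

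**Figure D2:**
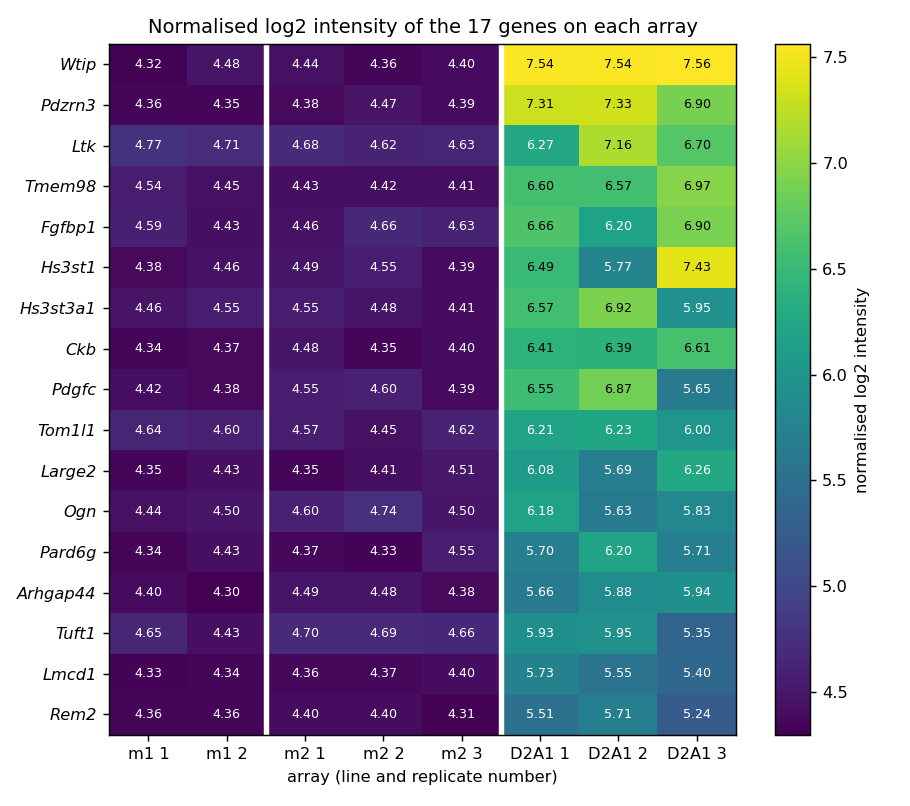
Normalised log2 intensity of the 17 genes (rows, highest D2A1 mean at the top) on the 8 arrays (columns, D2A1-m1, D2A1-m2, then D2A1). Subline values lie between 4.30 and 4.77 and D2A1 values between 5.24 and 7.56, with the spread between D2A1 arrays largest for Hs3st1.

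Among secreted and matrix proteins, Pdgfc encodes a platelet-derived growth factor that binds the receptor Pdgfra. Its intensity was 52.7 and 52.3 on the D2A1-m1 arrays, 57.6, 59.1 and 52.7 on the D2A1-m2 arrays, and 111.4, 132.9 and 85.7 on the D2A1 arrays. The groups did not overlap, and the array of batch 2 was the lowest of the 3 D2A1 arrays. Pdgfc was at least 2.17-fold lower in D2A1-m1 and at least 2.26-fold lower in D2A1-m2.

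Fgfbp1, which releases FGFs from the matrix, gave 58.5 and 54.4 in D2A1-m1, 54.8, 60.6 and 60.4 in the D2A1-m2 cultures, and 117.2, 98.5 and 160.4 in D2A1. All 5 subline values stayed near background, and the gene was at least 2.55-fold lower in D2A1-m1 and at least 2.65-fold lower in D2A1-m2. Ogn encodes osteoglycin, a small leucine-rich proteoglycan of connective tissue. Its intensity was 53.5 and 56.5 in D2A1-m1, 58.9, 62.7 and 56.5 in the D2A1-m2 cultures, and 95.2, 79.4 and 92.7 in D2A1, at least 1.56-fold lower in D2A1-m1 and 1.62-fold lower in D2A1-m2. Tuft1 encodes tuftelin, first known from tooth enamel. It averaged 4.54 ± 0.15 on the log2 scale in D2A1-m1 (SD, n = 2), 4.68 ± 0.02 in D2A1-m2 and 5.74 ± 0.34 in D2A1 (SD, n = 3 each), with bounds of 1.42-fold and 1.48-fold lower.

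Of the enzymes that build sugar chains, Hs3st1 makes the 3-O-sulphated site to which antithrombin binds. It gave 51 and 55.3 in D2A1-m1, 55.7, 57.7 and 52.8 in the D2A1-m2 cultures, and 108.3, 83.2 and 214.2 in D2A1. The D2A1 arrays differed among themselves more than for any other of the 17 genes, with an SD of 0.83 on the log2 scale and the highest value in batch 2. The gene was at least 2.50-fold lower in D2A1-m1 and at least 2.60-fold lower in D2A1-m2.

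Hs3st3a1, whose product modifies other sites of the chain, had its highest D2A1 value in batch 1 instead. Its intensity was 54.4 and 58.3 in D2A1-m1, 57.6, 55.7 and 53.5 in the D2A1-m2 cultures, and 112.3, 136.4 and 98.2 in D2A1, where the array of batch 2 was the lowest. Its bounds were 2.36-fold lower in D2A1-m1 and 2.46-fold lower in D2A1-m2. Hs3st1 and Hs3st3a1 were the 2 genes of this enzyme family with a kept probe. The probes of Hs3st2, Hs3st3b1, Hs3st5 and Hs3st6 were detected on none of the 8 arrays, so that nothing is known of these genes here. Large2 encodes a glycosyltransferase that extends the laminin-binding sugar of dystroglycan. It gave 49.7 and 54.1 in D2A1-m1, 50.1, 53.1 and 57 in the D2A1-m2 cultures, and 91.6, 81 and 114.6 in D2A1, at least 1.71-fold lower in D2A1-m1 and 1.78-fold lower in D2A1-m2.

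Ltk encodes a receptor tyrosine kinase closely related to Alk. Its intensity was 63.4 and 62.5 in D2A1-m1, 61, 59.7 and 60.5 in the D2A1-m2 cultures, and 98.4, 155.2 and 143.3 in D2A1. Its lowest detection p on a subline array was 0.0705, so that Ltk lay closest to the limit of the rule on that side. It was at least 2.77-fold lower in D2A1-m1 and at least 2.89-fold lower in D2A1-m2. Tmem98, a membrane protein with a single span, gave 57 and 54.9 in D2A1-m1, 53.5, 53.5 and 53.6 in the D2A1-m2 cultures, and 113.6, 116.6 and 165.9 in D2A1. It was at least 2.77-fold lower in D2A1-m1 and at least 2.89-fold lower in D2A1-m2, with no overlap between the lines.

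Wtip had the highest level in D2A1 and so the highest bounds of the 17 genes. It encodes a LIM-domain protein of the Ajuba family that shuttles between cell junctions and the nucleus. The intensity was 47.6 and 56.1 in D2A1-m1, 54.2, 50.8 and 52.9 in the D2A1-m2 cultures, and 185.6, 192.3 and 233.2 in D2A1. After normalisation the 3 D2A1 arrays read 7.54, 7.54 and 7.56, an SD of 0.01, and Wtip was at least 4.95-fold lower in D2A1-m1 and at least 5.16-fold lower in D2A1-m2. Lmcd1, another LIM-domain gene, whose product restrains GATA factors, averaged 4.34 ± 0.01 in D2A1-m1, 4.38 ± 0.02 in D2A1-m2 and 5.56 ± 0.16 in D2A1 on the log2 scale, with bounds of 1.25-fold and 1.3-fold lower.

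Pdzrn3, a ubiquitin ligase with PDZ domains that acts on the muscle receptor MuSK and on Wnt signalling, had the next highest bounds. It gave 50 and 50.5 in D2A1-m1, 51.7, 55.4 and 52.5 in the D2A1-m2 cultures, and 164, 171.7 and 160.1 in D2A1. All D2A1 arrays lay far above all subline arrays, and the bounds were 3.84-fold lower in D2A1-m1 and 4-fold lower in D2A1-m2. Pard6g encodes one of the Par6 proteins, which hold the atypical protein kinase C complex that sets cell polarity. It averaged 4.39 ± 0.06 in D2A1-m1, 4.41 ± 0.12 in D2A1-m2 and 5.87 ± 0.29 in D2A1 on the log2 scale, at least 1.55-fold lower and 1.61-fold lower.

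Arhgap44, which encodes a GTPase-activating protein with a membrane-bending domain, averaged 4.35 ± 0.07 in D2A1-m1, 4.45 ± 0.06 in D2A1-m2 and 5.82 ± 0.15 in D2A1. Its bounds were 1.5-fold and 1.56-fold lower. Rem2, an RGK GTPase that inhibits voltage-gated calcium channels, averaged 4.36 ± 0.00 in D2A1-m1, 4.37 ± 0.05 in D2A1-m2 and 5.49 ± 0.23 in D2A1. Its bounds, 1.19-fold and 1.24-fold lower, were the smallest of the 17.

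Tom1l1 encodes an adaptor of endosomal sorting that is also a substrate of Src kinases. It gave 60 and 59.5 in D2A1-m1, 58.1, 54.5 and 60.3 in the D2A1-m2 cultures, and 96.6, 99.7 and 100.6 in D2A1, at least 1.87-fold lower in D2A1-m1 and 1.95-fold lower in D2A1-m2. Ckb encodes the brain form of creatine kinase, which buffers ATP in the cytosol. Its intensity was 49.1 and 51.9 in D2A1-m1, 55.5, 50.2 and 53.2 in the D2A1-m2 cultures, and 104.5, 107.1 and 136.6 in D2A1. The SD over the D2A1 arrays was 0.13 for Tom1l1 and 0.12 for Ckb on the log2 scale, and Ckb was at least 2.35-fold lower in D2A1-m1 and at least 2.45-fold lower in D2A1-m2.

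**Figure D3:**
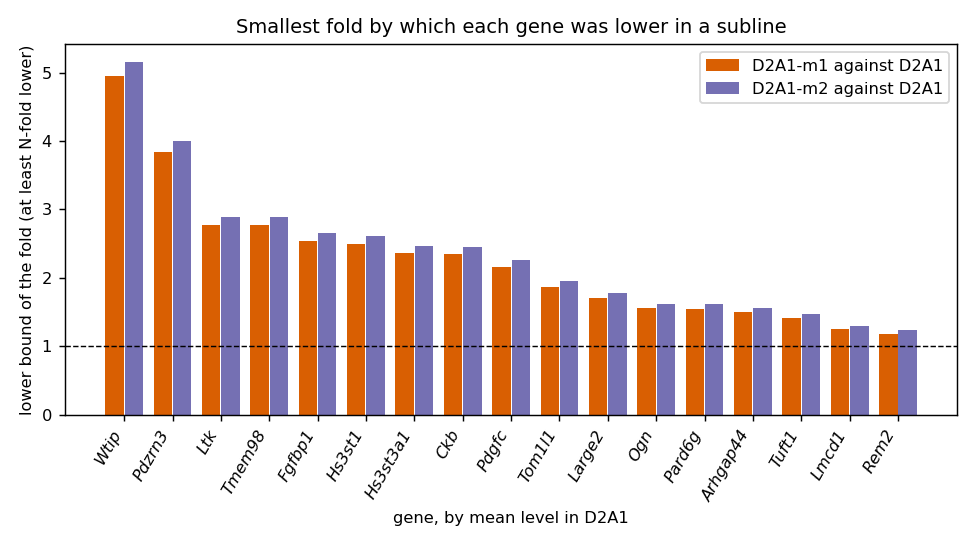
Lower bound of the fold by which each gene was lower in D2A1-m1 (orange) and D2A1-m2 (violet) than in D2A1, from 0. The dashed line marks no difference. Wtip has the highest bounds, 4.95 and 5.16, and Rem2 the lowest, 1.19 and 1.24. The subline floor is the same for all genes, so their order follows the D2A1 level.

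The 17 genes did not vary in 1 direction between the D2A1 cultures. The SD over the 3 D2A1 arrays ran from 0.01 to 0.83 with a median of 0.28, and the array of batch 2 was the highest of the 3 for 7 genes and the lowest for 7 others. The median difference from D2A1 within batch 1 was -1.75 for D2A1-m1 and -1.65 for D2A1-m2. Within batch 2 it was -1.64 for D2A1-m1 and -1.51 for D2A1-m2, and the rule itself fixed this direction in each batch.

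Since the rule asked for no detection on every subline array, the probes it chose could show next to no difference between D2A1-m1 and D2A1-m2, and no test is given for them. They differed by at most 0.19 on the log2 scale, near the floor. Over all kept probes, 3.34% passed limma's test between D2A1-m1 and D2A1-m2 (adjusted p below 0.05 after Benjamini-Hochberg, with 1.5-fold or more), and 19.7% had an unadjusted p under 0.05.

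Other probes of the same genes gave a mixed picture of how low the transcripts were. The 17 genes had 14 further probes, of which 5 passed the detection filter. The other probe of Tmem98 met the rule as well. Its log2 values were 4.27 and 4.34 in D2A1-m1, 4.35, 4.26 and 4.37 in the D2A1-m2 cultures, and 5.74, 5.92 and 6.43 in D2A1. A further 9 probes, of Large2, Lmcd1, Ltk, Pdgfc and Pdzrn3, were detected on no array and say nothing about the lines, and 9 members had 1 probe only.

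For Ogn, Tuft1 and Large2 another probe was above background in the sublines, so that these 3 genes were lower rather than silent. One further Ogn probe was detected on all 8 arrays, with 6.62 and 7.68 in D2A1-m1, 7.57, 8.25 and 8.27 in the D2A1-m2 cultures, and 9.31, 9.62 and 9.89 in D2A1. Its fitted differences from D2A1 were -2.57 ± 0.16 in D2A1-m1 and -1.81 ± 0.15 in D2A1-m2. Between the sublines, which the rule did not compare, it was lower in D2A1-m1 than in D2A1-m2 by -0.76 ± 0.16 (SE; limma adjusted p = 0.038). Without D2A1-m1 replicate 1, whose value of 6.62 was the lowest, or without D2A1-m1 replicate 2 or any one D2A1-m2 array, it did not pass the test, with differences from -1.03 to -0.47 over all settings tried.

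The second further Ogn probe read 4.76 and 4.87 in D2A1-m1, 4.66, 4.86 and 5.0 in the D2A1-m2 cultures, and 5.84, 5.91 and 6.01 in D2A1, and was not detected at 0.01 on any subline array. The other Tuft1 probe was detected on every array, at 9.40 and 8.66 in D2A1-m1, 9.63, 9.09 and 8.96 in the D2A1-m2 cultures, and 10.92, 11.56 and 10.14 in D2A1. For Large2 the other probe read 5.51 and 5.16 in D2A1-m1, 5.08, 5.19 and 5.20 in the D2A1-m2 cultures, and 7.56, 7.42 and 7.47 in D2A1, and it was detected on both D2A1-m1 arrays and on 2 of 3 D2A1-m2 arrays. The 4 kept probes outside the rule were all at least 1.5-fold lower in both sublines. Which transcript each probe reads was not analysed here.

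**Figure D4:**
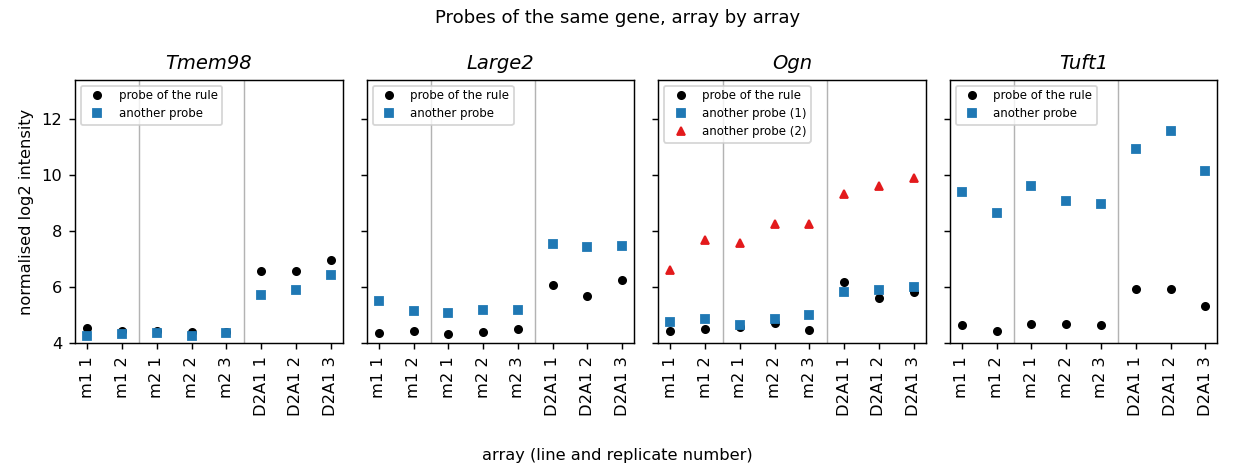
Normalised log2 intensity of the probe that met the rule (black circles) and of the other kept probes (blue squares, red triangles) of Tmem98, Large2, Ogn and Tuft1 on the 8 arrays, with D2A1-m1, D2A1-m2 and D2A1 from left to right. One other probe of Ogn lies between 6.62 and 8.27 on the subline arrays, while its probe of the rule lies between 4.44 and 4.74 there.

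Members just inside and just outside the limits show how finely the rule cut. On the D2A1 side the highest detection p inside were 0.00748 for Rem2 and 0.00321 for Pard6g, Arhgap44, Lmcd1 and the other Tmem98 probe. The nearest outside were 0.0171 for Scpep1os, 0.0192 for Khdrbs3 and 0.0235 for Npr3. On the subline side the lowest inside were 0.0705 for Ltk, 0.0758 for Ogn and 0.0951 for Tuft1, and the nearest outside were 0.0406 for Dusp22, 0.0395 for Auts2 and 0.0385 for Cmtm8.

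The members lie on 10 chromosomes, with 4 of 17 on chromosome 11, which holds 638 of the 7450 genes detected on all D2A1 arrays. One pair lay within 1 Mb, Hs3st3a1 and Arhgap44, with 479 kb between them. Of the 5 other tested genes in or beside that stretch, Cox10, 2810001G20Rik, Elac2, Map2k4 and Zkscan6, 0 were called in either subline, and their differences ran from -0.27 for Cox10 in D2A1-m1 to 0.13 for 2810001G20Rik in D2A1-m2.

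The nearest tested gene on each side within 500 kb, 22 genes in all, was not used by the rule. In D2A1-m1, 4 of the 22 passed the test as lower and 0 as higher, where 6.79% of all 9017 genes were called lower and 7.57% higher. In D2A1-m2, 4 were lower and 1 was higher, where 7.28% were called lower and 8.86% higher. The median difference of the 22 was -0.07 for D2A1-m1 and -0.00 for D2A1-m2, where all genes had medians of 0.01 and -0.00. Between the sublines 0 of the 22 were called, where 4.13% of all genes were.

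Prmt5, an arginine methyltransferase 26.7 kb from Rem2, fell to 7.84 and 7.88 in D2A1-m1 and to 8.48, 7.90 and 8.03 in the D2A1-m2 cultures, against 9.30, 8.68 and 8.85 in D2A1. The differences were -1.04 ± 0.20 (limma adjusted p = 0.00691) and -0.73 ± 0.18 (adjusted p = 0.0196). Trmt61a, a tRNA methyltransferase subunit 5.77 kb from Ckb, fell by 0.77 in D2A1-m1 (adjusted p = 0.0112) and by 0.60 in D2A1-m2 (adjusted p = 0.0187). Adnp2, a zinc finger gene 6.68 kb from Pard6g, fell by 0.68 in D2A1-m1 (adjusted p = 0.0152) and by 0.64 in D2A1-m2 (adjusted p = 0.0119).

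Beside Ltk, Itpka was called lower in D2A1-m1. It was detected on 1 D2A1 array and on none of the sublines, so it could only come out lower, and neither a fold nor a test is given. Rpap1, also beside Ltk, fell by 0.74 in D2A1-m2 (adjusted p = 0.00164). Cdk5r1, 329.2 kb from Tmem98, rose by 0.79 in D2A1-m2 (adjusted p = 0.0028). Several of these calls rested on single arrays. Without D2A1-m1 replicate 1, 0 of the 22 passed in D2A1-m1, and without its replicate 2, 2 passed. Of the neighbours called in D2A1-m1 with all arrays, only Prmt5 was among these 2. Without D2A1 replicate 3 or D2A1-m2 replicate 3, 3 of 5 passed in D2A1-m2, while the calls of Rpap1 and Cdk5r1 held whichever array was left out.

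**Figure D5:**
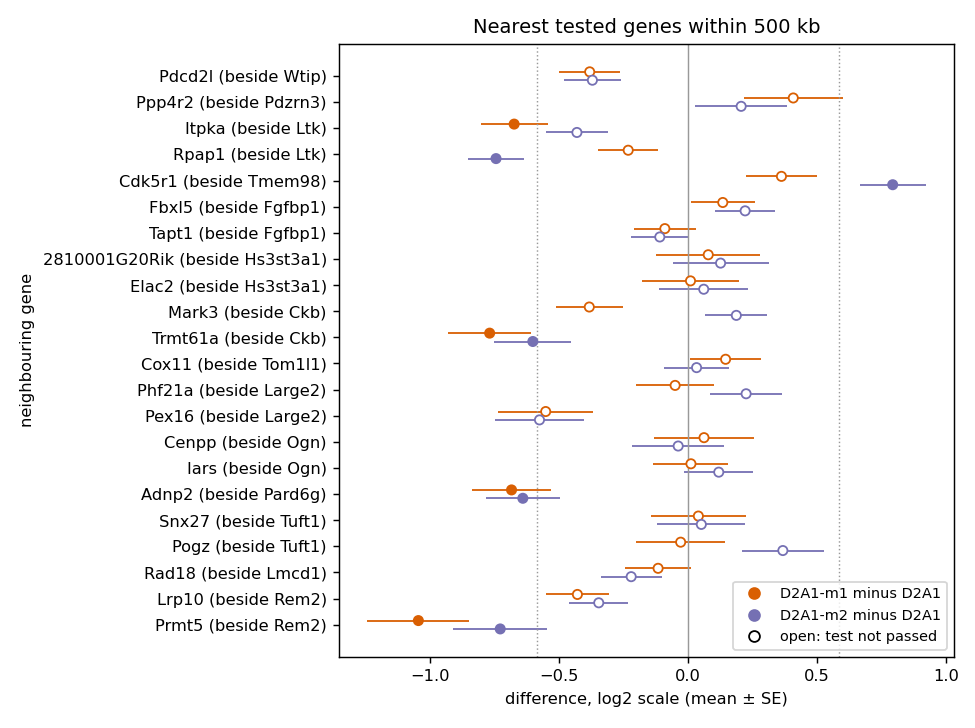
Fitted difference on the log2 scale (mean ± SE) of D2A1-m1 minus D2A1 (orange) and D2A1-m2 minus D2A1 (violet) for the 22 neighbouring genes, each beside its member. Filled points passed the test and dotted lines mark 1.5-fold. The lowest value is -1.04 for Prmt5 in D2A1-m1 and -0.74 for Rpap1 in D2A1-m2, and the highest of all is 0.79 for Cdk5r1 in D2A1-m2.

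Partners and relatives of the members were taken from lists written after the members were known, so that they describe what surrounds them. Among the small leucine-rich proteoglycans, the family of Ogn, 2 of 10 genes on the array had a kept probe, and both were lower in both sublines. Omd, osteomodulin, lies 15.4 kb from Ogn. Its values were 4.95 and 4.85 in D2A1-m1, 4.87, 4.92 and 4.85 in the D2A1-m2 cultures, and 6.46, 6.08 and 6.44 in D2A1, and its probe narrowly missed the rule, with a lowest detection p of 0.0321 on a subline array. Omd was lower by at least 2.13-fold in D2A1-m1 and by at least 2.22-fold in D2A1-m2. It passed the detection filter through D2A1 arrays alone, so it could only come out lower and no test is given for it. Omd was picked out after its values were seen. Bgn, biglycan, read 6.21 and 6.62 in D2A1-m1, 6.65, 6.43 and 6.39 in the D2A1-m2 cultures, and 9.41, 9.59 and 8.71 in D2A1. It fell by 2.78 in D2A1-m1 (adjusted p = 6.38e-05) and fell by 2.66 in D2A1-m2 (adjusted p = 5.62e-05). Cenpp, which overlaps Ogn, and Iars, its other tested neighbour, were not called, with differences from -0.04 to 0.12. The call of Bgn held in both sublines whichever array was left out.

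Of 17 tested genes that build or trim heparan sulphate, D2A1-m1 had 3 higher and 1 lower, and D2A1-m2 had 1 higher and 1 lower. Papss1, which makes the sulphate donor, rose by 0.71 in D2A1-m1 and by 0.67 in D2A1-m2. Hs6st1, a 6-O-sulphotransferase, read 7.36 and 7.86 in D2A1-m1, 8.26, 8.79 and 9.01 in the D2A1-m2 cultures, and 8.42, 9.04 and 8.64 in D2A1. It fell by 1.15 in D2A1-m1 (adjusted p = 0.00779) and differed by -0.13 in D2A1-m2 (adjusted p = 0.685). The other called genes were B3gat3 and Hpse, higher in D2A1-m1, and Ext2, lower in D2A1-m2. The call of Papss1 was lost in both sublines without D2A1 replicate 3, in D2A1-m1 without either of its arrays and in D2A1-m2 without its replicate 1 (range over both 0.49 to 0.94), and that of Hs6st1 without D2A1-m1 replicate 1 (range -1.41 to -0.92).

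Among 8 core proteins that carry the chains, the counts were 4 higher and 1 lower for D2A1-m1, and 3 higher and 2 lower for D2A1-m2. Sdc3, syndecan 3, fell by 2.33 in D2A1-m1 (adjusted p = 2.11e-05) and fell by 1.60 in D2A1-m2 (adjusted p = 0.000125). Col18a1, the collagen from which endostatin is cut, rose by 2.23 and 1.53, and Gpc1 and Hspg2 were higher in both sublines. Tgfbr3 rose in D2A1-m1 and Sdc4 fell in D2A1-m2. The median of the list was 0.24 in D2A1-m1 and 0.36 in D2A1-m2.

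Around the ligand Pdgfc, of 6 tested PDGF ligands, receptors and co-factors, D2A1-m1 had 2 called higher and D2A1-m2 had 4, and neither had any called lower. Pdgfa, which shares its receptor with Pdgfc, read 10.07 and 9.67 in D2A1-m1, 10.39, 10.19 and 10.33 in the D2A1-m2 cultures, and 8.92, 9.67 and 8.28 in D2A1. It rose by 1.00 in D2A1-m1 (adjusted p = 0.0231) and by 1.52 in D2A1-m2 (adjusted p = 0.00213). The call in D2A1-m1 was lost without D2A1 replicate 1, D2A1 replicate 3 or either D2A1-m1 array, over a range of 0.70 to 1.27. The receptor Pdgfra rose by 0.77 in D2A1-m1 and differed by -0.11 in D2A1-m2, and Pdgfrb, Pdgfb and Nrp1 were higher in D2A1-m2.

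In the FGF list of 6 tested genes, 2 were higher and 0 lower in each subline. Fgf7, keratinocyte growth factor, was undetected in D2A1 and detected on all subline arrays, with 10.90 and 11.50 in D2A1-m1, 10.25, 10.77 and 10.77 in the D2A1-m2 cultures, and 4.91, 4.75 and 4.57 in D2A1. It was at least 59.3-fold higher in D2A1-m1 and at least 39.1-fold higher in D2A1-m2. Fgf7 passed the detection filter through subline arrays alone and could only come out higher, so its call, counted above, is not read as a test. Fgfbp3, called higher in D2A1-m1, was undetected in D2A1 and too dim for a fold. It too passed the filter through subline arrays alone, so its call, counted above, is not read as a test. Fgfrl1 rose by 0.60 in D2A1-m2.

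Among 14 LIM-domain genes beside Wtip and Lmcd1, 1 was called higher and 1 lower in D2A1-m1, while D2A1-m2 had 5 higher and 0 lower. Csrp2 rose in both sublines, by 0.88 and 1.64, and Crip2, Fhl2, Lpp and Zyx rose in D2A1-m2. Fhl1 was lower in D2A1-m1 by at least 3.49-fold (adjusted p = 0.00204). The relatives of Pard6g in the Par complex gave 0 calls among 6 tested genes in either subline, and so did the 2 tested genes of the creatine list around Ckb. Alk, the 1 tested gene of the list around Ltk, was not called.

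Around Large2, 0 of 8 genes for dystroglycan and its sugar were called in D2A1-m1, and 2 rose (Rxylt1, Pomgnt1) and 1 fell (B4gat1) in D2A1-m2. Of 8 endosomal sorting genes related to Tom1l1, Gga2 and Stam fell in both sublines, by 0.62 and 0.92 in D2A1-m1 and by 0.70 and 0.69 in D2A1-m2, and Hgs rose in D2A1-m2. Among 5 genes of GTPase-activating proteins with a membrane-bending domain like that of Arhgap44, Arhgap42 fell in D2A1-m1 and Sh3bp1 in D2A1-m2. Rrad, an RGK GTPase like Rem2, was at least 1.4-fold higher in D2A1-m1, and Lnx2, related to Pdzrn3, rose by 0.63 in D2A1-m2.

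Pard6g belongs to the machinery of epithelial polarity. Of 12 tested tight junction and polarity genes, 3 were called lower and 1 higher in D2A1-m1, and 4 lower and 0 higher in D2A1-m2. Cldn1, a tight junction claudin, was undetected in both sublines at 0.01 and was lower by at least 1.71-fold in D2A1-m1 and by at least 1.79-fold in D2A1-m2. It passed the detection filter through D2A1 arrays alone and could only come out lower, so its call, counted above, is not read as a test. Esrp2, an epithelial splicing factor, fell by 1.32 in D2A1-m1 and by 1.42 in D2A1-m2, and F11r, a junctional adhesion molecule, fell by 1.04 and 0.69. Spint2 was lower in D2A1-m2 and Tjp1 higher in D2A1-m1. The medians of the list were -0.25 in D2A1-m1 and -0.24 in D2A1-m2.

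Several calls among these partners and relatives rested on single arrays. In D2A1-m1, leaving out its replicate 1 ended the calls of Arhgap42, B3gat3, Csrp2, Pdgfra and Stam, leaving out its replicate 2 ended that of Tgfbr3, and leaving out either ended those of Hpse and Tjp1. Those of Gga2 and Hspg2 in D2A1-m1 were lost without either of its arrays or D2A1 replicate 3, and that of Fgfbp3 without its replicate 2 or D2A1 replicate 3. In D2A1-m2, the calls of F11r, Pomgnt1 and Rxylt1 were lost without D2A1 replicate 3, that of Zyx without D2A1 replicate 3 or D2A1-m2 replicate 1, and that of Pdgfrb without D2A1 replicate 3 or D2A1-m2 replicate 3. Those of Ext2 and B4gat1 were lost without D2A1 replicate 2 or 3 or D2A1-m2 replicate 1, that of Gpc1 in D2A1-m2 without D2A1 replicate 1 or 3 or D2A1-m2 replicate 1, and that of Lnx2 without D2A1 replicate 1 or D2A1-m2 replicate 1 or 3. The calls of Hgs, Fgfrl1, Sdc4, Spint2, Sh3bp1 and Pdgfb each were lost without any of at least 4 of the 8 arrays, D2A1 replicate 3 among them. The calls of Sdc3, Col18a1 and Esrp2 held in both sublines whichever array was left out, and so did those of Fhl1 and Rrad in D2A1-m1.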

How the data were processed

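The authors deposited bead array intensities that were neither background-subtracted nor normalised, each with a detection p-value, and a table of processed values on a scale close to log2. To make that table the authors dropped probes with a detection p above 0.01 on all arrays, then applied variance stabilisation, robust spline normalisation (lumi, version not given in the sources used here) and ComBat. Intensities were processed with neqc of limma 3.58.1 in R 4.3.3 (normexp from detection p-values, offset 16, quantile, log2). Probes detected on at least 1 array were kept, 16462 in all. One model with terms for line and batch (4 residual degrees of freedom, 5.33 from the prior) was fitted to them. A call needed a Benjamini-Hochberg adjusted p under 0.05 and 1.5-fold. Lists and neighbours used the probe of largest interquartile range per gene. The members, lists and rules were chosen with earlier results of these data known, and lists of partners after the members were known. Named were the members (per-array values for the 12 highest in D2A1), called neighbours and called list genes. The files name no genome build, and gene positions came from RefSeq. The model fit and its calls were tried on simulated log2 values with 200 changed probes. Background correction, normalisation and the detection rule were not tried in this way. The number of arrays limits the precision. Alternatives covered background, offset, the authors' values, batch, filter, prior, the methods' t-test and single arrays.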

Additional observations from a re-analysis of the deposited data

Results flagged for a closer look

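The Ogn probe detected on all arrays differed between the sublines by -0.76 (D2A1-m1 minus D2A1-m2, log2 scale). Among genes of the function and partner lists, 23 more differed between the sublines by the same limma test, 12 of them counted as partners of the members. Nrp1 is in a list of each kind and was counted with the cell functions. Over all 9017 genes, 4.13% were called between the sublines. By list, the calls were 7 of 14 tested LIM-domain genes, 2 of 8 heparan sulphate core proteins and 1 of 17 genes of heparan sulphate synthesis. They were 0 of 24 DNA methylation and Polycomb genes, 0 of 12 tight junction and polarity genes and 0 of 12 ion channel genes. Lists can share genes, so no share over all of them is given. The cell type marker lists, which can share genes with these lists, are not in the count of 23. They held calls for 2 fibroblast markers, 1 smooth muscle or pericyte marker and 1 leukocyte marker. In the LIM-domain list the differences were -1.94 for Crip2, -0.76 for Csrp1, -0.77 for Csrp2, -2.17 for Fhl1, -0.59 for Fhl2, -0.69 for Lpp and -0.75 for Zyx. Around heparan sulphate they were -1.02 for Hs6st1, -0.61 for Hspg2 and -0.73 for Sdc3, and those of Pdgfra (0.89) and Rrad (0.67) were positive. In the lists of cell functions, Cx3cl1 (1.18), Il34 (0.92), Pros1 (0.82) and Sox12 (0.61) were higher in D2A1-m1. Dlx2 (-0.60), Epha2 (-0.82), Hoxc6 (-0.82), Irx3 (-0.66), Nrp1 (-0.76), Pcdh19 (-1.03) and Plin2 (-0.69) were lower in D2A1-m1. Of the 24 calls, that of Crip2 held whichever of the 8 arrays was left out, and the others held for 2 to 4 of the 8. Under 13 other settings of processing and test, that of Crip2 held in 10. The others held in 0 (Dlx2) to 8 (Csrp1 and Hs6st1) of the 13. Fhl1 was undetected in D2A1-m1, so that its fitted value depends on the floor.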

How the results depend on the processing

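The count of 17 members was 9 with a detection p of at most 0.001 in D2A1, 37 with at most 0.05, and 43 with a p over 0.01 in the sublines. It was 28 in batch 1 alone, 66 in batch 2 alone, and 17 to 20 with any 1 array left out. The median difference was -1.15 in D2A1-m1 and -1.01 in D2A1-m2 with no background correction, -1.04 and -0.95 with an offset of 50, -0.45 and -0.41 on the authors' processed values, and -1.59 and -1.49 in batch 1 alone. On the authors' values only 4 of the 17 were at least 1.5-fold lower in each subline, and with an offset of 50 15 and 14 were. The bounds above do not carry over to the authors' scale, on which Wtip averaged 6.94 in D2A1-m1, 6.95 in D2A1-m2 and 7.94 in D2A1. With 1 array left out the median difference ran from -1.89 to -1.64 in D2A1-m1 and from -1.78 to -1.64 in D2A1-m2.

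Probes called numbered 2019 in D2A1-m1, 2149 in D2A1-m2 and 550 between the sublines. With no background correction 1298 were called in D2A1-m1 and 1293 in D2A1-m2, with an offset of 50 1292 and 1291, and on the authors' values 476, 437 and, between the sublines, 116. Batch 1 alone gave 209, 140 and 0, and batch 2 alone gave 1299 in D2A1-m1 and 336 between the sublines. No batch term gave 107 and no detection filter 279 between the sublines. Leaving out 1 array gave 655 to 2318, 1621 to 2425 and 43 to 824. The methods' t-test, run on the authors' processed values since ComBat was not rerun, gave 40, 105 and 18, and after Benjamini-Hochberg 0, 275 and 0.

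Of the neighbours, 4 were called in D2A1-m1, Itpka among them, and 5 in D2A1-m2. The counts were 2 and 3 where the background was not corrected, the offset was 50 or the batch term was dropped, 2 and 0 on the authors' values, 0 and 0 in batch 1 alone and by the methods' t-test before and after adjustment, and 3 in D2A1-m2 with no filter. Leaving out 1 array gave 0 to 4 and 3 to 5. Between arrays of the same replicate number, correlations of deviations ran from -0.41 to 0.30. With few arrays and replicate numbers partly tied to batch, they cannot settle whether the cultures were paired. A replicate block in place of the batch gave 133 probes between the sublines, 2075 in D2A1-m1 and 2308 in D2A1-m2. With few arrays and member signals near background, small differences could not be resolved.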

Other observations

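Lists of other cell functions, read beside the 17 members, held calls in both directions. Among 10 complement and coagulation genes, Masp1 and Cd59a were lower in both sublines, Pros1 was lower in D2A1-m2 and F2r higher in D2A1-m1. Of 24 DNA methylation and Polycomb genes, the methyltransferase Dnmt3b was lower in both, with differences of -0.87 and -0.93, and in D2A1-m2 Rbbp7 was lower and Rbbp4 and Phc2 were higher. Of 22 developmental transcription factors, Hoxc6, Sox9 and Gata2 were higher and Sox12 and Dlx1 lower in both sublines, Irx3 was higher in D2A1-m2, and Tfap2a was higher and Dlx2 lower in D2A1-m1. Of 7 milk and secretory genes, Wfdc2 was lower and Muc1 higher in both, Xdh higher in D2A1-m1, and Plin2 higher and Stat5a lower in D2A1-m2. Of 18 axon guidance genes, Slit2 and Efnb2 were higher in both, and in D2A1-m2 Epha2, Nrp1, Nrp2 and Unc5b were higher and Sema3f and Efna1 lower. Of 16 chemokines and cytokines, Il34, Il33, Il18 and Csf1 were higher in both, and in D2A1-m2 Il11 was higher and Cx3cl1, Cxcl1, Ccl5 and Tnfsf9 lower. Of 12 ion channel genes, Kcnk2 and Clic4 were higher and Itpr2 lower in both, and Trpv2 and Trpv4 higher in D2A1-m2. Pcdh18 was higher in both and Pcdh1 and Pcdh19 in D2A1-m2 among 5 cadherins, Gli3 was higher in D2A1-m2 among 9 hedgehog genes, and 0 of 7 P450 and phase II genes were called. Many of these calls rested on few arrays. Those of Trpv4, Pcdh18, Sema3f, Tfap2a, Il18, Itpr2, Efna1, F2r, Rbbp7, Stat5a, Ccl5, Clic4 and Efnb2 were lost in at least 1 subline without any one of 3 or more of the 8 arrays, and the difference of Ccl5 then ran from -1.68 to -0.61. Those of Cd59a, Cx3cl1, Il33, Pcdh1, Xdh, Csf1, Il34, Muc1, Nrp2, Trpv2 and Unc5b were lost in at least 1 subline without any one of 1 or 2 arrays. The calls of the other genes of these lists held whichever array was left out.

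The 2 probes without a gene name that met the rule gave intensities of 54.5 and 58.1 in D2A1-m1, 53.9, 52.6 and 51.4 in the D2A1-m2 cultures, and 88.6, 98.7 and 86.4 in D2A1 for the first. The second gave 46.9 and 55.6 in D2A1-m1, 54.6, 54 and 55.3 in the D2A1-m2 cultures, and 79.9, 87.2 and 85.9 in D2A1.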
